A study of Mus musculus with 2 samples.

Results

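Adipoq, Plin1, Cidea, Pparg, Lpl, Gpd1, Car3, Ppargc1a, Ucp1 and Cox7a1 are 10 genes of fat cell differentiation, fat storage and heat production. They were picked by name from the 28000 genes in the count tables, and 9 of the 10 had at least 1 UMI (unique molecular identifier, which stands for 1 captured RNA molecule). The study asked what the histone chaperone HIRA does in the pigment lineage of the mouse. Trunk skin was taken from embryos at E15.5 (days after conception), live cells carrying the red reporter tdTomato were sorted, and single cells were sequenced with 10x Chromium 3′ chemistry. WT embryos were TyrCre::Hira wt/wt:tdTomato and KO embryos were TyrCre::Hira fl/fl:tdTomato, both on a mixed background close to C57BL/6J. In both genotypes Cre recombinase was driven by the promoter of Tyr, a pigment cell gene, and removed the stop cassette in front of tdTomato at Rosa26. In the KO it also removed the floxed part of Hira. A cell of another lineage entered the sort if it or its ancestors had used the Tyr promoter, or if it slipped through the gate, and these routes cannot be told apart here. The data used here hold 1 library per genotype, so no difference between genotypes has a replicate check, and nothing was tested. The exact 95% intervals in parentheses cover counting error alone.

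Fat cells arise from mesenchymal progenitors under the control of the nuclear receptor PPARγ, the product of Pparg, and then switch on genes for taking up, building and storing triglyceride. White fat cells store energy, whereas brown fat cells burn fatty acids in many mitochondria and release heat through the uncoupling protein UCP1. In the mouse embryo brown fat forms beneath the skin of the back before birth, while most white depots fill later.

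In the WT library 7073939 UMIs were spread over 1546 barcodes (median 3961), and in the KO library 5049514 over 846 (median 5152.5). After filtering, 1540 WT and 828 KO cells were left. Hira, the targeted gene, had 82 UMIs in the WT cells, or 11.6 CPM (UMIs scaled to 1e6; 9.24 to 14.4), and 50 in the KO cells, or 10.0 CPM (7.43 to 13.2). These 3′ counts can lie outside the deleted part of the gene, so they check nothing about the knockout. In adipocyte-like cells, defined below, Hira had 8 UMIs in the WT and 1 in the KO. Classes differed: melanoblast-like cells had 35 and 3 UMIs of it. That was 13.8 CPM (9.60 to 19.2) in the WT and 3.53 CPM (0.728 to 10.3) in the KO, intervals that overlap. Glial cells gave 11.0 and 7.53 CPM, whereas mesenchymal-like cells gave 7.58 and 10.7 CPM. Xist, expressed from the inactive X chromosome of females, had 16825 UMIs in the WT library and 24 in the KO library, and the Y-linked gene Ddx3y had 1 and 237. The WT library was thus largely female and the KO library largely male, and sex and genotype cannot be told apart in any comparison between them.

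Transcripts of the 10 genes were concentrated in a small group of fat-like cells. Clustering without the 10 genes gave 21 clusters, and the cluster called adipocyte-like raised 10 of 11 adipocyte markers that are not among the 10 genes. It held 45 of 1540 WT cells, or 2.92% (2.14 to 3.89), and 8 of 828 KO cells, or 0.966% (0.418 to 1.89). The 11 markers summed to 2566 UMIs, or 5560 CPM, in the WT cells, where 11 of 11 were detected and Fabp4, a fatty acid carrier, was the most abundant with 2054. In the KO cells 9 of 11 were detected with 298 UMIs in sum, or 2917 CPM, of which Fabp4 had 237, and Cfd and Plin4 were at 0. The median depth of these cells was 9718 UMIs in the WT and 11494.5 in the KO, well above the library medians. The border of the class moved with the processing: at a clustering resolution of 0.5 it held 32 WT and 3 KO cells, and 12 WT and 5 KO cells joined the mesenchymal-like class. Those that left carried collagen and Dlk1, a gene of preadipocytes, along with Lpl. The share therefore depends on where fat cells are divided from their progenitor-like neighbours, and it also depends on the tdTomato gate. A tdTomato UMI was seen in 1 of the 45 WT and 1 of the 8 KO adipocyte-like cells, against 52 of 1540 cells, or 3.38%, and 68 of 828, or 8.21%, over all cells.

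In WT cells the adipocyte-like class held 4372 of the 4771 UMIs of the 10 genes, or 91.6%, and in KO cells 509 of 839, or 60.7%. Its summed level was 9473 CPM (9194 to 9758) in the WT, against 60.5 CPM (54.7 to 66.7) in all other WT cells. Each UMI marks the 3′ end of 1 molecule whatever the transcript's length, so levels of different genes are set side by side here without scaling to length.

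Among genes of the fat cell program, Pparg (ENSMUSG00000000440, chr6:115360951-115490399 in GRCm38), which encodes the master regulator of adipogenesis, had 65 UMIs in WT adipocyte-like cells. That was 141 CPM (109 to 180), with a UMI in 29 of 45 cells. Adipoq (ENSMUSG00000022878, chr16:23146536-23158028) encodes the secreted hormone adiponectin and stood at 576 CPM (509 to 650) from 266 UMIs. Plin1 (ENSMUSG00000030546, chr7:79720218-79732903), which encodes the perilipin that coats the lipid droplet, was lower, at 106 CPM (78.5 to 140) from 49 UMIs. Of the transcripts of this program, the hormone was thus more abundant than its regulator and the droplet coat.

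Genes of lipid handling covered a wide range. Lpl (ENSMUSG00000015568, chr8:68880491-68907448) encodes the lipoprotein lipase that frees fatty acids from circulating triglyceride, and its level in these cells was 756 CPM (679 to 840). It was the member detected in most cells, 45 of 45. Gpd1 (ENSMUSG00000023019, chr15:99717515-99725005), whose enzyme supplies the glycerol backbone of triglyceride, had 332 CPM (281 to 388) and was seen in 30 cells. Car3 (ENSMUSG00000027559, chr3:14863512-14872523), a cytosolic carbonic anhydrase abundant in fat and in muscle, outweighed the rest. It had 3060 UMIs, or 6630.1 CPM (6397 to 6869), a median of 67 UMIs per cell and up to 199 in 1 cell.

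The genes tied to heat production did not run in parallel. Cox7a1 (ENSMUSG00000074218, chr7:30184144-30186078), the heart, muscle and brown fat form of a cytochrome c oxidase subunit, stood at 639 CPM (568 to 716), with UMIs in 28 of 45 cells. Cidea (ENSMUSG00000024526, chr18:67343604-67367785), a lipid droplet protein enriched in brown fat, stood at 256 CPM (212 to 306) and was seen in 20 cells. Ppargc1a (ENSMUSG00000029167, chr5:51454250-51567726), the coactivator that drives mitochondrial biogenesis, had 17 UMIs, or 36.8 CPM (21.5 to 59.0). Ucp1 (ENSMUSG00000031710, chr8:83290352-83298452), which encodes the uncoupler itself, had 0 UMIs. A count of 0 (with 3 UMIs as its upper limit) allows up to 6.50 CPM in WT adipocyte-like cells, 29.4 CPM in the KO ones and 0.425 CPM over all WT cells.

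In order of level, WT adipocyte-like cells therefore gave Car3, then Lpl, Cox7a1 and Adipoq, then Gpd1, Cidea, Pparg and Plin1, then Ppargc1a, with Ucp1 undetected. The intervals of Lpl and Cox7a1 overlapped, as did those of Cox7a1 and Adipoq, those of Gpd1 and Cidea, and those of Pparg and Plin1. Other neighbours in this order were separated beyond counting error. The place of Lpl changed with the border of the class: at a resolution of 0.5 it stood at 662 CPM, below Cox7a1 at 788 and Adipoq at 675.

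**Figure D1:**
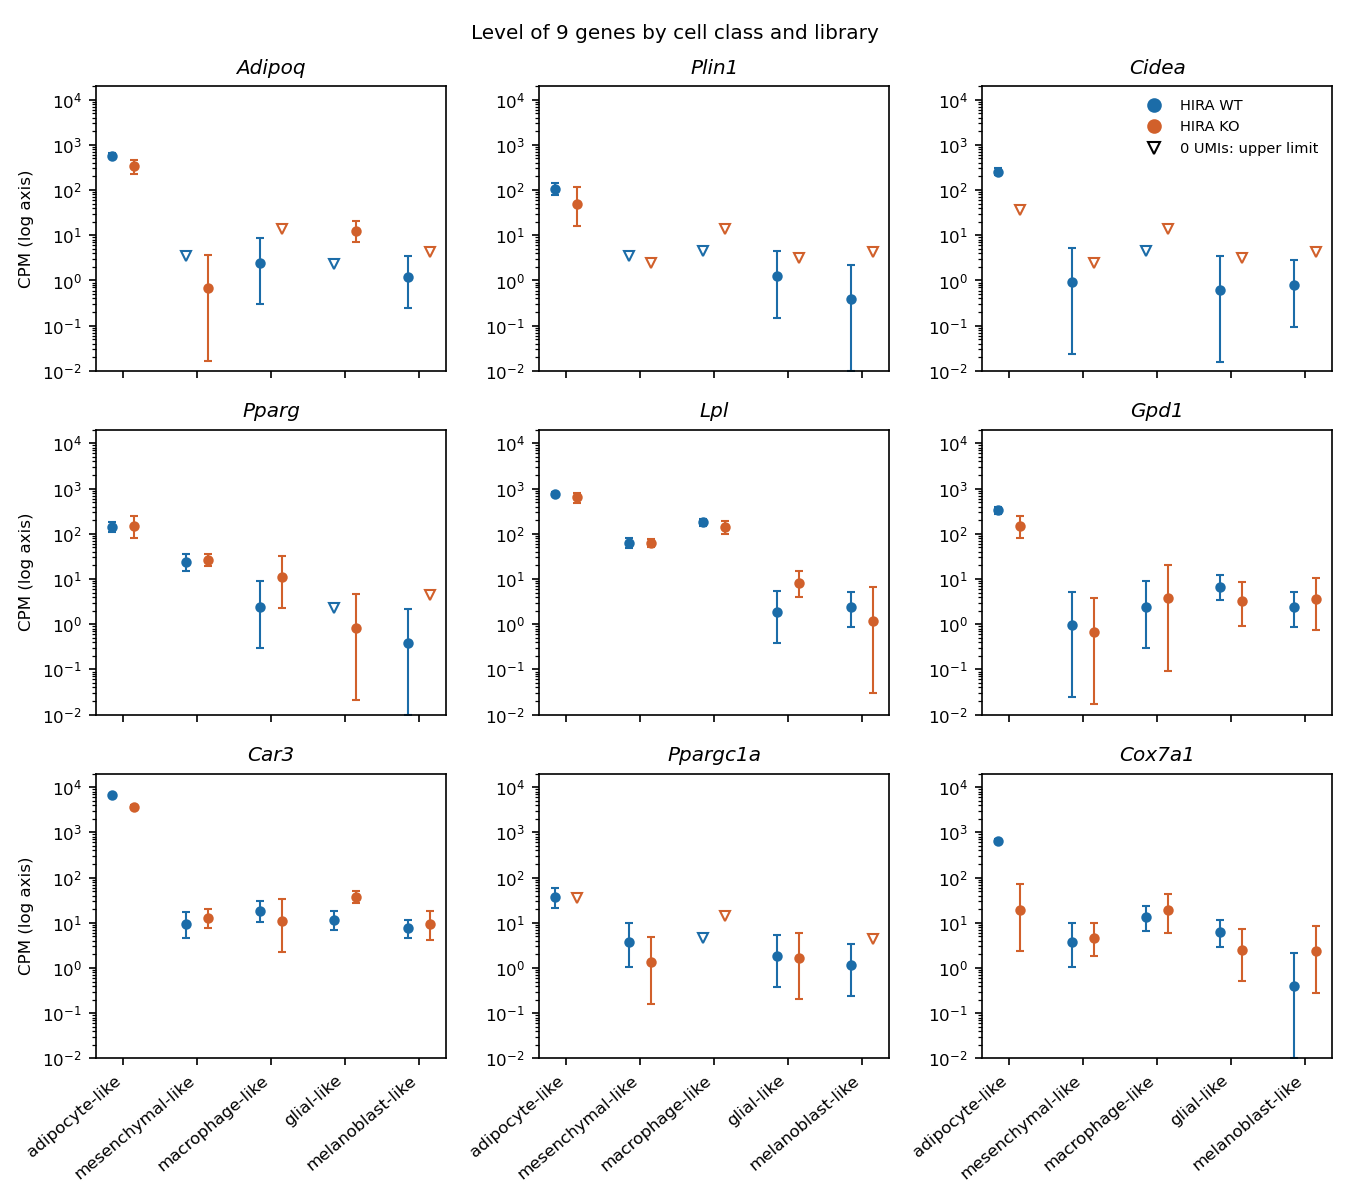
Level of 9 of the 10 genes (CPM, log axis) in 5 cell classes, WT in blue and KO in orange, with points for summed UMIs, bars for exact 95% Poisson intervals, and open triangles at the upper limit where a gene had 0 UMIs. Car3 is highest in adipocyte-like cells of both libraries, at 6630.1 CPM in the WT and 3651 in the KO, and Lpl also stands high in macrophage-like cells.

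Set against all other WT cells, every detected member was higher in adipocyte-like cells. The log2 ratio was 9.31 (8.17 to 10.77) for Adipoq, from 266 UMIs against 6, and 9.29 (8.95 to 9.65) for Car3, from 3060 against 70. For Cidea it was 8.72 (7.33 to 10.62) and for Plin1 7.87 (6.24 to 10.19). Cox7a1 and Gpd1 followed at 6.91 (6.40 to 7.46) and 6.77 (6.10 to 7.52). The ratio was smallest for Pparg, at 5.05 (4.39 to 5.75), Ppargc1a, at 4.60 (3.39 to 5.89), and Lpl, at 4.48 (4.24 to 4.73), the genes with the largest share of their transcripts elsewhere. At 10 or more UMIs, 9 of 9 members were at least 2-fold higher and 0 lower, where of 12338 genes 11.0% were that much higher and 33.1% lower. Adipoq, Plin1 and Cidea, with 6, 3 and 4 UMIs in other cells, reached 10 through the adipocyte-like cells. The members are fat cell genes read in a class named by other fat cell markers, so the count is no test of them. The members' median was 6.91 and that of all genes -0.37. Scaling the classes by TMM (trimmed mean of M values) raised the median of all genes by 0.14.

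Low counts of some members in other cells kept the proportions seen in adipocyte-like cells. Car3 lay between 6.73 and 18.3 CPM in WT melanoblast-like, glial, mesenchymal-like, macrophage-like and mast cell-like cells, and no such cell held more than 2 UMIs. Adipoq had 6 UMIs in all other WT cells, where its ratio to Car3 in adipocyte-like cells gives 6.08. Such levels cannot be told apart from background. Most other members departed from that ratio. In WT macrophage-like cells Lpl had 147 UMIs where the ratio to Car3 gives 1.71, and in WT mesenchymal-like cells it had 66 where it gives 1.14. Pparg had 25 UMIs in WT mesenchymal-like cells where the ratio gives 0.212. Smaller departures were seen for Gpd1 in glial cells, with 11 UMIs against 0.950, and for Cox7a1 in mast cell-like cells, with 8 against 0.193, and macrophage-like cells, with 11 against 1.45. Over all other WT cells Cox7a1 had 35 UMIs against 6.75 and Ppargc1a 10 against 0.389, while Cidea had 4 against 2.70 and Plin1 3 against 1.12.

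Macrophages also make lipoprotein lipase, and Lpl was the main member in the macrophage-like class. The class joined a cluster led by Pf4, a macrophage gene, and a cluster led by Plac8 whose leading genes also include Mpo and Elane of granulocyte precursors. In the Pf4 cluster Lpl stood at 234 CPM (196 to 276) in the WT and 171 CPM (113 to 249) in the KO, with -0.45 (-1.10 to 0.15) as the log2 ratio, so no difference was detectable at this depth. UMIs were seen there in 55 of 96 WT cells, or 57.3%, at a median depth of 5571.5, against 6 of 536 melanoblast-like cells, or 1.12%, at a median of 4335. With each cell thinned to 2000 UMIs, which leaves out 1 cell of the Pf4 cluster and 11 melanoblast-like cells, these shares were 31.6% and 0.952%. In the Plac8 cluster 4 of 50 WT cells had Lpl, and its level was 39.6 CPM in the WT and 91.0 CPM in the KO, from 9 and 10 UMIs, with -0.25 to 2.67 as the interval of the log2 ratio.

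Outside fat cells and macrophages, Lpl and Pparg marked part of the mesenchyme. WT mesenchymal-like cells had 62.5 CPM of Lpl (48.4 to 79.6), seen in 44 of 213 cells, or 20.7%, and 23.7 CPM of Pparg (15.3 to 35.0), seen in 9.39%. After thinning the Lpl share was 10.8% in the WT and 9.68% in the KO. Adipoq and Plin1 had 0 UMIs in WT mesenchymal-like cells, a limit of 2.84 CPM each. Transcripts of the regulator and the lipase were thus present in the mesenchyme, while those of the fat cell hormone and the droplet coat were not detected in its WT cells. This depends on the border of the class, since at a resolution of 0.5 the 12 WT cells that joined the mesenchyme included 1 with Adipoq.

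Between the genotypes, adipocyte-like cells of the KO library had lower levels (CPM) of 5 of the 10 members beyond counting error. The share of all genes lower by that criterion is not given here. By counts alone, 18.4% of 4979 genes were at least 2-fold lower and 11.1% higher. The summed level was 9473 CPM in the WT and 4982 CPM (4558 to 5434) in the KO, for a KO to WT log2 ratio of -0.93 (-1.06 to -0.79). Car3 stood at 6630.1 CPM in the WT and 3651 CPM (3289.7 to 4041) in the KO, for a KO to WT log2 ratio of -0.86 (-1.02 to -0.71). Gpd1 was at 332 and 147 CPM, with a log2 ratio of -1.18 (-2.05 to -0.41), and Adipoq at 576 and 333 CPM, with -0.79 (-1.35 to -0.27). These intervals lie below 0, so with the class as drawn here the gap between these libraries exceeds counting error, while the spread between embryos is unknown. The gap depended on the border of the class: with at least 500 genes required per cell, which left 33 WT and 2 KO cells, Car3 stood at 7779 and 7705 CPM, Gpd1 at 401 and 359 and Adipoq at 695 and 814. The intervals then overlapped for all 3, and the direction turned for Adipoq, as it did after thinning, with 548 and 750.0 CPM. In both settings only 2 KO cells were left, and before thinning 1 of them held 32 of the 34 KO Adipoq UMIs.

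Of the brown fat members Cox7a1 and Cidea stood apart most. Cox7a1 had 295 UMIs in the 45 WT cells and 2 in the 8 KO cells, 639 against 19.6 CPM, for a log2 ratio of -5.03 (-8.08 to -3.16). Cidea had 118 UMIs in the WT cells and 0 in the KO cells, a log2 ratio whose interval ends at -2.80. Over all cells of the KO library Cidea was at 0 too, which allows up to 0.600 CPM, where the WT library had 17.3 CPM (14.3 to 20.6). Ppargc1a had 17 against 0 UMIs, but the interval of its log2 ratio reaches 0.13, so with 8 KO cells no difference is not excluded.

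For the regulator and the lipase no difference was detectable at this depth. Pparg stood at 141 CPM in the WT and 147 CPM (82.2 to 242) in the KO, for a KO to WT log2 ratio of 0.06 (-0.86 to 0.89). Lpl stood at 756 and 636 CPM (491 to 811), for a KO to WT log2 ratio of -0.25 (-0.65 to 0.14). Plin1, with 49 against 5 UMIs, had a log2 ratio of -1.12 (-2.80 to 0.20) that cannot be distinguished from 0 at this depth. Of 9 members with 10 or more UMIs, 5 were at least 2-fold lower by their counts and 0 higher in the KO. Ppargc1a and Plin1 were among the 5 with intervals that include 0. Of 4979 genes 18.4% were lower and 11.1% higher. Cidea and Ppargc1a had 0 UMIs in the KO and reached 10 through the WT alone, so they could only count as lower. Cox7a1 and Plin1, with 2 and 5 KO UMIs, also reached 10 through the WT. The count of 5 is therefore no measure of the members against that share. The members' median log2 ratio was -1.12, or -0.86 with genes at 0 set at their limit, and that of all genes -0.05. TMM scaling shifted the median of all genes by -0.23 and changed the split from 555 genes higher and 914 lower to 337 higher and 1245 lower.

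The KO values rest on few cells of mixed kind. A single KO cell of 23326 UMIs held 298 of the 509 member UMIs, or 58.5%, with 32 of the 34 Adipoq UMIs. Without it the other 7 cells summed to 2676 CPM (2327 to 3063), with Adipoq at 25.4 CPM (3.07 to 91.6), Gpd1 at 76.1, Car3 at 1814, Pparg at 139.5 (69.6 to 250) and Lpl at 609. Most of the remaining KO cells carried progenitor and collagen genes: 6 of the 8 had between 26 and 82 Dlk1 UMIs and between 6 and 30 Col1a1 UMIs, and their Adipoq count was 0. The 10 mesenchymal markers, of which 10 were detected in each library and Col1a2 was the most abundant, summed to 1883 CPM in WT and 6382 CPM in KO adipocyte-like cells. Of these markers 8 of 10 were at least 2-fold higher in the KO, with a median log2 ratio of 1.57. Other classes differed too: the 9 keratinocyte markers summed to 54.2 CPM in the WT and 431 CPM in the KO. Lower in the KO were the 10 melanoblast markers, at 202 CPM in the WT and 48.9 CPM in the KO. The 7 mast cell markers were also lower, at 145 CPM in the WT and 9.79 CPM in the KO. Where clustering left 32 WT and 3 KO cells in the class, the summed levels were 11099.8 and 7631 CPM and Adipoq stood at 675 and 602 CPM. Cox7a1 stayed apart, at 788 and 35.4 CPM. The part of cell makeup and of sex in these differences was not tested.

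Mesenchymal-like cells gave no difference beyond counting error with the class as drawn here. They numbered 213 in the WT and 253 in the KO, but different clusters held most of them: 170 of the WT cells were Crabp1-type, whereas the KO cells were 120 Mfap4/Angptl1-type and 100 Crabp1-type. Lpl stood at 62.5 CPM in the WT and 63.6 CPM (51.5 to 77.8) in the KO, for a KO to WT log2 ratio of 0.03 (-0.44 to 0.50). Pparg stood at 23.7 and 26.8 CPM (19.1 to 36.5), for a KO to WT log2 ratio of 0.18 (-0.58 to 0.96). Of 4 members with 10 or more UMIs, 0 were 2-fold higher and 0 lower, where of 10043 genes 9.02% were higher and 4.62% lower. The members' median was 0.24 and that of all genes 0.01. Their summed level was 105 CPM in the WT and 111 CPM in the KO, a log2 ratio of 0.07 (-0.28 to 0.43). These ratios moved with the border of the fat cell class: at a resolution of 0.5, where WT Lpl-bearing cells joined the mesenchyme, Lpl gave -0.87 and Car3 -1.27 in place of 0.43 (-0.75 to 1.69). Over the 4 settings that moved 10 or more WT cells across the border, Lpl ran from -0.79 to -1.13, with each interval below 0, so whether these libraries differ in mesenchymal Lpl depends on where that border is drawn.

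Within the mesenchyme, Pparg was unevenly spread in the KO library, while the intervals of the types overlapped in the WT. In Mfap4/Angptl1-type cells it stood at 10.1 CPM (0.256 to 56.4) in the WT and 8.01 CPM (2.60 to 18.7) in the KO. In Crabp1-type cells it stood at 26.2 CPM in the WT and 24.3 in the KO, a log2 ratio of -0.11 (-1.15 to 0.89), and Lpl gave -0.17 (-0.82 to 0.46). Car3 had 9 UMIs there in the WT and 0 in the KO, and the interval of its log2 ratio ends at -0.47. In Mfap5/Clec3b-type cells, Pparg had 20 UMIs in 33 KO cells, or 79.3 CPM (48.4 to 122), and 1 UMI in 21 WT cells, a log2 ratio of 2.67 (0.03 to 8.04). That interval nearly reaches 0, and the value cannot be taken further from so few WT cells. Lpl in the same cells stood at 87.1 CPM in the WT and 71.4 in the KO. In Mfap4/Angptl1-type cells, of which the WT library had 22, Lpl had 3 UMIs in the WT and 42 in the KO, a log2 ratio of 1.15 (-0.50 to 3.48). In these cells Car3 had 0 UMIs in the WT and 12 in the KO, of which the highest KO cell of the class held 5. The interval of its log2 ratio begins at -1.19, so no direction is shown with so few WT cells.

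Outside these classes a KO glial cell stood out. It held 60 member UMIs among 26521, with 36 of Car3, 14 of Adipoq and 7 of Lpl beside 7 of Sox10, a glial gene, and it was not called a doublet. This cell accounted for 14 of the 15 Adipoq UMIs and 36 of the 45 Car3 UMIs in KO glial cells. The WT glial cells had 0 Adipoq UMIs. Counting cells outside the adipocyte-like class with 6 or more member UMIs gave 8 of 1495 in the WT and 5 of 820 in the KO, among them 6 WT macrophage-like cells by their Lpl.

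Single WT adipocyte-like cells differed widely in how many members they expressed. The number of members detected ran from 1 to 9 with a median of 7, and the summed UMIs per cell from 3 to 281 with a median of 102. Per 10000 UMIs of a cell the sum ran from 5.79 to 206 with a median of 96.1, against 0 to 128 with a median of 21.3 in the KO. Some pairs were nested. Each of the 33 cells with Adipoq also had Car3, and each of the 20 cells with Cidea also had Cox7a1. Plin1 was found with Adipoq in 19 of its 20 cells, and Ppargc1a with Gpd1 and Adipoq in 11 of its 11. Cidea was the most uneven of the abundant members, with 61.0% of its UMIs in 5 cells, where Car3 had 24.6%.

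Cox7a1 divided the WT adipocyte-like cells, and bands of it were drawn after its values had been seen. It had 5 or more UMIs in 20 cells, between 1 and 4 in 8 cells and 0 in 17 cells. Cidea had 113 UMIs in the band of 5 or more, in 18 cells, and 0 in the band of 0, where the limit is 17.5 CPM, a log2 ratio whose interval begins at 4.77. Gpd1 stood at 529 CPM (430 to 643) in the upper band and 175 CPM (118 to 249) in the lower, higher by a log2 ratio of 1.60 (1.00 to 2.24). Car3 differed less, at 8974 and 4968 CPM, a log2 ratio of 0.85 (0.73 to 0.97). Ppargc1a had 13 against 1 UMIs, a log2 ratio of 3.56 (0.83 to 8.97). Cidea, Gpd1, Car3 and Ppargc1a were thus higher where Cox7a1 was high.

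Other members did not follow that division. Adipoq stood at 587 CPM in the upper and 582 CPM in the lower band, a log2 ratio of 0.01 (-0.39 to 0.42), though 20 of 20 cells had it in the upper band and 8 of 17 in the lower. Pparg stood at 116 and 181 CPM, a log2 ratio of -0.63 (-1.49 to 0.20). Lpl ran the other way, at 460.1 CPM (368 to 568) in the upper and 1264 CPM (1101 to 1444) in the lower band, with a log2 ratio upper to lower of -1.46 (-1.83 to -1.09). The lower band was itself mixed. The cell with most Car3 had 30 Adipoq, 199 Car3 and 37 Lpl UMIs with 0 of Cox7a1, whereas 6 of its cells had Lpl but 0 of Car3 and of Adipoq.

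Further genes, also chosen after their values were seen, moved with these bands. Cox8b, another muscle and brown fat subunit of cytochrome c oxidase, had 64 UMIs in the upper band and 0 in the lower, with an interval that begins at 3.94 on the log2 scale. Ebf2, a transcription factor of brown adipogenesis, had 55 against 13, a log2 ratio of 1.94 (1.05 to 2.94). Dlk1 had 48 against 713 UMIs, a log2 ratio of -4.03 (-4.49 to -3.61), and Dcn, a fibroblast gene, 2 against 137, with -6.24 (-9.30 to -4.36). The mitochondrial share of a cell's UMIs ran from 4.56% to 9.74% in the upper band and from 2.07% to 4.78% in the lower. Cell depth did not separate the bands, with medians of 9445 and 7491 UMIs, but the upper band reached near the mitochondrial limit of 10% used to remove cells. Of the gene lists, 12 of 15 fatty acid oxidation genes were at least 2-fold higher in the upper band (median log2 ratio 1.64). So were 16 of 20 respiratory chain genes (median 1.33) and 3 of 4 adipogenic regulators. The brown lineage list had 6 of 20 genes with 10 or more UMIs. Of these 6, 3 had 0 UMIs in the lower band and reached 10 through the upper band alone, so they could only count as higher. The count of 6 of 6 higher is therefore no measure of that list. Synthesis had 2 of 6 higher and 2 lower, the lipid droplet 3 of 10 higher and 1 lower, close relatives 4 of 7 higher and 1 lower, uptake 0 of 2 either way and progenitors 1 of 1 lower. Among the relatives Ppargc1b had 20 UMIs in the upper band and 0 in the lower, so it too could only count as higher. Of 3646 genes in all, 16.0% were higher and 19.9% lower. The median of all genes was -0.14.

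**Figure D2:**
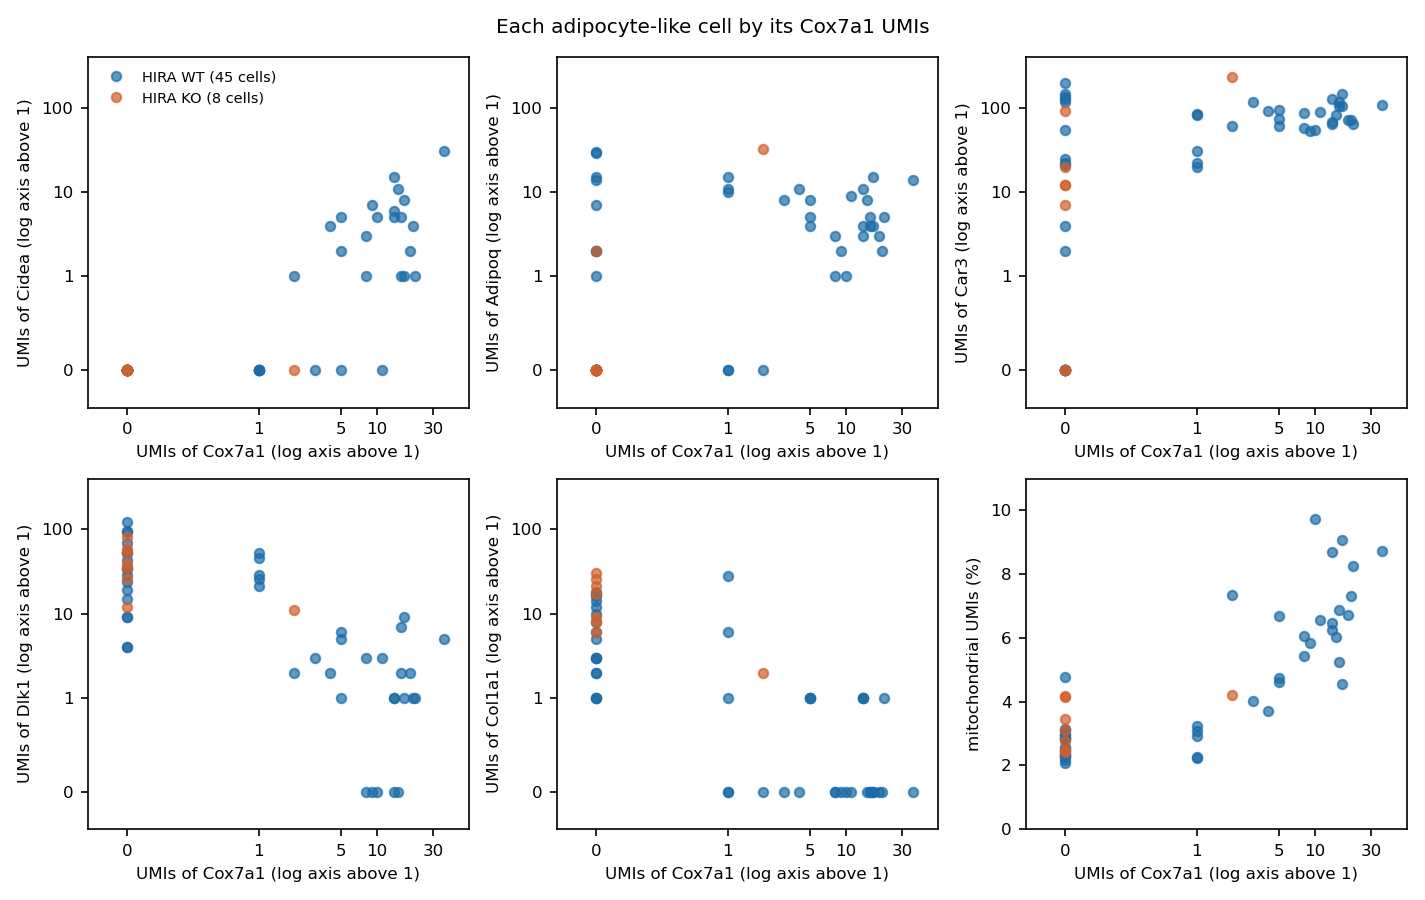
Each adipocyte-like cell (45 WT, 8 KO) by its Cox7a1 UMIs on the horizontal axis and, in separate panels, its Cidea, Adipoq, Car3, Dlk1 and Col1a1 UMIs and its mitochondrial percent on the vertical axis. Cells with 5 or more Cox7a1 UMIs carry little Dlk1 and Col1a1, and 7 of the 8 KO cells lie at 0 Cox7a1.

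Genes that act with the 10 members were read from 9 lists, each in adipocyte-like against other WT cells, where 11.0% of all genes were at least 2-fold higher and 33.1% lower. Among adipogenic regulators 5 of 10 were at least 2-fold higher and 2 lower, with a median log2 ratio of 0.80. The lipid sensor Nr1h3 (5 against 8 UMIs) gave 3.16 and the lipogenic factor Srebf1 (35 against 64) gave 2.97. Klf5 had 0 UMIs in adipocyte-like cells against 53 elsewhere, and the retinoid receptor Rxrg gave -1.82. The list on brown lineage and thermogenesis had 8 of 10 higher and 1 lower, with a median of 2.19. There Cox8b, with 66 against 1 UMI, gave 9.88 (7.35 to 15.21) and the potassium channel Kcnk3, with 25 against 2, gave 7.48 (5.48 to 10.60). Both reached 10 UMIs through the adipocyte-like cells. Zic1 gave 0.93 and Pank1 -1.55, while Adrb3, Elovl3, Kng2, Cpt1b and Slc27a2, several of them genes of active brown fat, had 0 UMIs in WT cells of either kind. So some genes of brown fat were raised in cells where Ucp1 was not detected.

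Lipid storage lists were higher in part. Of 14 genes of fatty acid and triglyceride synthesis 6 were higher and 0 lower, median 0.80, led by Thrsp, a lipogenic nuclear protein, at 7.69 (6.40 to 9.35) and the glucose transporter Slc2a4 at 4.84 (3.31 to 6.54). Elovl6 and Me1 gave -0.30 and 0.00. Of 11 genes of the lipid droplet and lipolysis 7 were higher and 1 lower, median 2.18. The glycerol channel Aqp7 gave 6.93 and the lipase inhibitor G0s2 4.15 (3.91 to 4.39), whereas Mgll gave -1.16 and Plin3 -0.23. Fatty acid uptake had 2 of 9 genes higher and 4 lower and a median of -0.83, or -0.20 with genes at 0 set at their limit, near the 11.0% higher and 33.1% lower of all genes. The lipase inhibitor Angptl4 gave 1.95 and the carrier Fabp5 1.84, while Vldlr gave -1.39 and Gpihbp1, which anchors lipoprotein lipase on capillaries, had 0 against 73 UMIs.

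The mitochondrial lists were the most uniform, beside 11.0% higher and 33.1% lower of all genes. Of 16 fatty acid oxidation genes 15 were at least 2-fold higher and 0 lower, with a median of 1.96, from Acadm at 2.64 (2.32 to 2.97) and Acaa2 at 2.57 down to Ech1 at 1.12 and Etfdh at 0.78. Of 20 respiratory chain genes 19 were higher and 0 lower, with a median of 1.61, from Cycs at 2.64 and Cyc1 at 2.50 down to Cox7c at 1.12 and Cox7a2l at 0.32. Adipose progenitor genes were mixed, with 2 of 11 higher and 7 lower and a median of -2.26. Of the 11, 4 had 0 UMIs in adipocyte-like cells and reached 10 through other cells alone, so they could only count as lower. With genes at 0 at their limit the median was -0.45, near the -0.37 of all genes. In this list F3 gave 3.06 and Dlk1 2.03 (1.93 to 2.14), and Pi16 and Ly6a had 0 UMIs against 64 and 59.

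Close relatives of the 10 genes mostly lacked their pattern, with 4 of 12 at least 2-fold higher, 1 lower and a median of 0.23. Car2, another carbonic anhydrase, gave 4.54 (3.67 to 5.45) and Ppargc1b, the sister coactivator of Ppargc1a, gave 3.59 (2.80 to 4.38) from 27 against 32 UMIs. The ubiquitous uncoupling protein gene Ucp2 was lower, at -2.65 (-4.11 to -1.52), from 6 against 540 UMIs. Ucp3, Cideb and Lipg had 0 UMIs in both. Cox7a2, the form of the subunit found in most tissues, was present beside Cox7a1, with 1068 UMIs in WT adipocyte-like cells against 295.

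**Figure D3:**
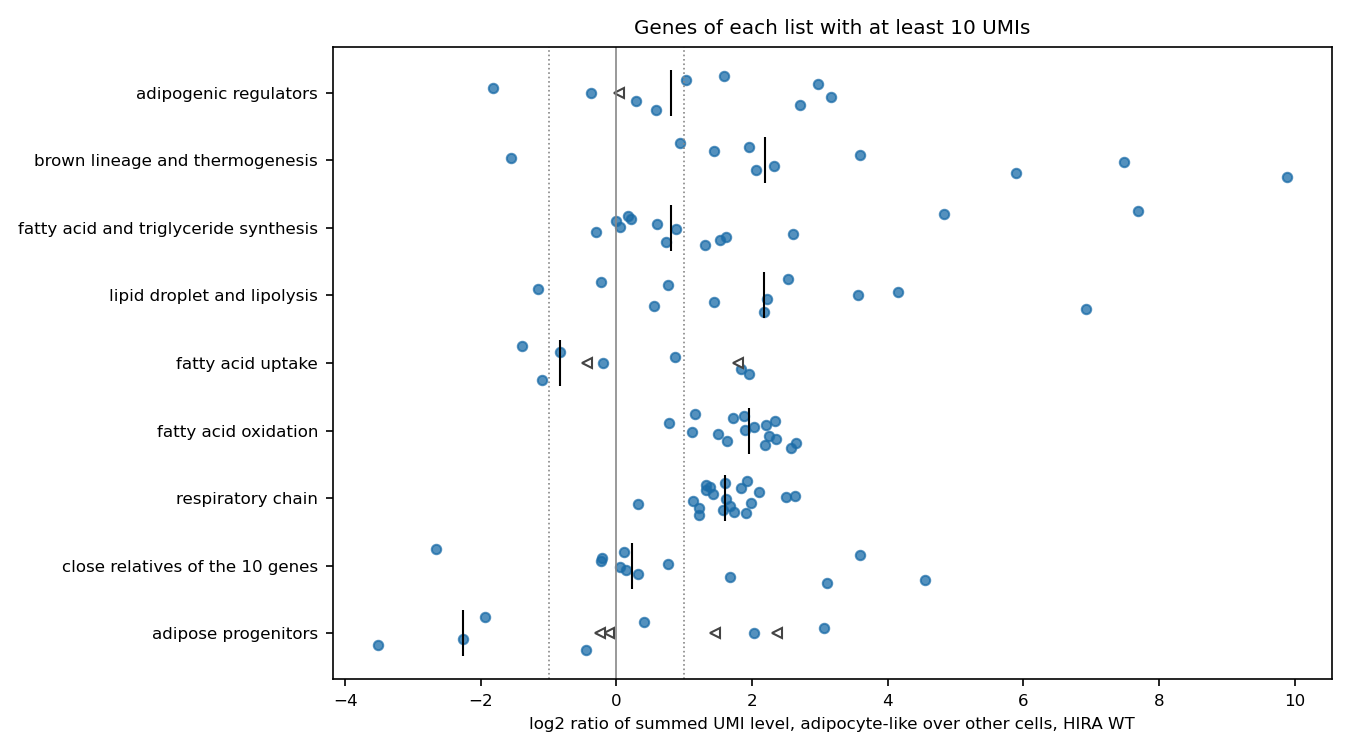
Log2 ratio of adipocyte-like to other WT cells for the genes of 9 lists with 10 or more UMIs, with a point per gene, a bar at each list's median (genes at 0 counted lowest), dotted lines at a 2-fold difference and grey triangles at the upper end of the interval for genes with 0 UMIs in adipocyte-like cells. Fatty acid oxidation (median 1.96) and respiratory chain genes (median 1.61) lie nearly all above the upper line, and adipose progenitor genes (median -2.26) are spread over both sides, 4 of 11 being at 0.

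Between the genotypes, adipocyte-like cells of the KO were lower in the mitochondrial lists, as they were in Cox7a1. In the same comparison 8 of 10 mesenchymal markers were at least 2-fold higher (median 1.57). The part of cell makeup in these lists was not tested. Fatty acid oxidation had 11 of 16 genes at least 2-fold lower and 0 higher, with a median log2 ratio of -1.28, and the respiratory chain 11 of 20 lower and 0 higher, with -1.06. The brown lineage list had 4 of 6 lower, with -0.85 when genes at 0 were set at their limit. Of these 6, 3 had 0 UMIs in the KO and so reached 10 UMIs through the WT alone. Cox8b, with 66 UMIs in the WT, was among them. The count of 4 therefore draws on genes that could only be lower. Synthesis had 4 of 10 lower (-0.81), the lipid droplet 3 of 12 (-0.82) and close relatives 2 of 8 (-0.83), with 0 higher in each. In the synthesis list 2 genes had 0 UMIs in the KO and could only count as lower. Its median was -0.48 with these at their limit. Over all genes 18.4% were lower and 11.1% higher, so the droplet and relatives lists lay near that share. Adipogenic regulators had 0 of 4 past 2-fold (-0.31) and fatty acid uptake 0 of 2 (0.13). Of 4 progenitor genes 1 was higher, with a median of 0.83. Fatty acid oxidation and the respiratory chain also had 80% of their counted genes at least 2-fold higher in the upper Cox7a1 band of the WT. There 16.0% of all genes were that much higher.

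In mesenchymal-like cells the medians of the lists lay between -0.19 and 0.59. Oxidation and respiratory chain genes had 0 of 16 and 0 of 20 past 2-fold, with medians of -0.19 and -0.15, and regulators had 0 of 7, with 0.41. Synthesis had 2 of 12 higher (0.59), relatives 3 of 9 higher (-0.01), the lipid droplet 3 of 10 lower (-0.11), uptake 1 of 7 lower and progenitors 1 of 10 higher (0.33), where 9.02% of all genes were higher and 4.62% lower. The 1 progenitor gene was Dlk1, at 1.04 (0.98 to 1.11). The brown lineage list had 1 of 5 higher and 1 lower (0.50): Ebf2, with 14 UMIs in the WT and 53 in the KO, gave 1.42 (0.55 to 2.38), and Zic1, with 43 and 24, gave -1.34 (-2.13 to -0.59). Ebf2 was chosen after its values were seen. Markers of other cell types differed more. Higher in the KO were 7 of 7 keratinocyte markers (median 4.36), 4 of 4 neutrophil markers (2.67) and 6 of 8 skeletal muscle markers (1.95). Of the keratinocyte markers 2 had 0 UMIs in the WT and could only count as higher, and with these at their limit the median was 3.37. Lower were 3 of 3 mast cell markers (-2.58) and 4 of 8 macrophage markers (-0.90). Their part in the values above was not tested.

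Car3 and Cox7a1 are also muscle genes, so muscle markers were read in the same cells. In WT adipocyte-like cells 2 of 13 skeletal muscle markers were detected, with 2 UMIs in sum, or 4.33 CPM, 1 each of Des and Mylpf, and the other 11 at 0, among them Acta1, Ckm, Myod1 and Myog. In the KO cells 3 of 13 were detected with 3 UMIs in sum. Defining muscle genes were thus at or near 0 in the cells that hold Car3.

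Over the 21 clusters of the WT library, the genes outside the lists whose log2 level was most alike to the mean of the 10 genes were Mrap (Pearson r of 0.965), Ppp1r1a (0.890), Cluh (0.851), Cited1 (0.841) and Chchd10 (0.827), followed by Cmbl, Arxes2, Arxes1, Prkar2b and Tmem53 at 0.816 to 0.778. These r values describe clusters of 1 library that differ in depth and rest largely on a single cluster. Mrap, an accessory protein of the melanocortin receptors, had 74 of its 78 WT UMIs in adipocyte-like cells, and Chchd10, a mitochondrial protein, 468 of 572. Members themselves ran from 0.968 for Plin1 down to 0.794 for Lpl.

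Since most members were high in the same cells, the 250 bases before their RefSeq starts (GRCm38.p6) were searched on both strands for motifs of fat cell regulators. Of the 10 genes 6 had an entry, 8 entries in all, and Cidea, Lpl, Gpd1 and Car3 had none. Searched were AGGTCA, the nuclear receptor element, found in 14.0% of 32851 promoters; a pair of AGGNCA 1 base apart, as PPARγ binds with its partner, found in 0.338%; TTGCNNAA of C/EBP factors, in 9.56%; and CCAAT, in 33.8%. The pair can overlap AGGTCA. It had 0 matches in the members. AGGTCA had 1 match before Ucp1 and 1 in each of 2 Pparg entries, TTGCNNAA in Plin1 and in the remaining Pparg entry with 2 matches each, CCAAT in Adipoq (3), Cox7a1 (2) and 2 Pparg entries, and the Ppargc1a window had none of them. Shown are Adipoq (chr16:23146286-23146535) and Ucp1 (chr8:83290098-83290347), which lie before the annotated gene, as the members with the highest ratio and with 0 UMIs, and the third Pparg window (chr6:115421816-115422065), which is intronic in the longer Pparg transcripts. All are on the plus strand, with matches in capitals.
Adipoq: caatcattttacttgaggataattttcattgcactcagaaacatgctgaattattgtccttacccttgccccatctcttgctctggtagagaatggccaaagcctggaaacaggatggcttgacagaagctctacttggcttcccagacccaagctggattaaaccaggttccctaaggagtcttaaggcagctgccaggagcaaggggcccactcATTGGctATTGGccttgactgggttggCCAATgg
Pparg: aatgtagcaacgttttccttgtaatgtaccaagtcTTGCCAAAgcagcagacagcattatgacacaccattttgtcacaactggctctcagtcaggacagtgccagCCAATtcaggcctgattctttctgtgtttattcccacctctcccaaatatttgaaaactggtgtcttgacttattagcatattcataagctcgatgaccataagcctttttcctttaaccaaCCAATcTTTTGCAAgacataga
Ucp1: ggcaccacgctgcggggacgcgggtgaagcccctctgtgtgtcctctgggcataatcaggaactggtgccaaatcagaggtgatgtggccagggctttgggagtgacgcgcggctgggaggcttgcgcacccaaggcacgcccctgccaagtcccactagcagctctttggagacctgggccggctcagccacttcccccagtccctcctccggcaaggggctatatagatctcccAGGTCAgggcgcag
A match is a run of letters in the reference, and these data do not show whether a factor binds there.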

How the data were processed

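The 10 genes and the gene lists were chosen with earlier results of these data known. The authors deposited, for each library, UMI counts per gene and cell barcode, made with Cell Ranger 2.2.0 against mm10 with tdTomato and Cre added. From these counts, cells with at least 100 genes, at most 40000 UMIs and at most 10% mitochondrial UMIs (the limits of the study) were kept, and genes seen in 3 or more cells. The libraries shared 0 barcodes. After scaling each cell to 10000 and taking logs, both libraries were clustered together on 2000 variable genes, 1978 after holding out the 10 genes, the pathway lists other than progenitors, Hira, sex-linked genes and reporters, with 30 components, 15 neighbours, Leiden resolution 1 and seed 0 (scanpy 1.11.5 and igraph 0.11.9 on Python 3.11.15, with scipy 1.17.1). A cluster could take a class name where at least 3 of its markers were seen in 10% or more of its cells. These also had to be raised by 1 or more on the log2 scale with 10 CPM added. In all, 20 of 21 were named. The remaining cluster, led by Stmn2, raised 4 of 10 mesenchymal markers. It matched no mesenchymal subtype, for which 2 raised markers were required, and was left unnamed. The names were rebuilt here from markers. Doublets by Scrublet were 9 in the WT (0.584%) and 6 in the KO (0.725%), 0 of them adipocyte-like, and none was removed. Levels are UMIs summed over a class, with exact Poisson intervals; shares have Clopper-Pearson and ratios conditional binomial intervals. Named by rule were the 10 genes, the highest and lowest ratios of each list among genes with 10 or more UMIs, muscle markers, tdTomato, and the 10 genes with at least 50 WT UMIs most alike to the members. TMM factors came from edgeR 4.0.16 in R 4.3.3. Cebpd, in the regulator list, was not analysed here.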

Additional observations from a re-analysis of the deposited data

Results flagged for a closer look

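Barcodes removed by the filters entered no comparison. In the WT library they still held 5 UMIs of Adipoq, 6 of Cidea, 28 of Car3 and 6 of Cox7a1, each above the 3 UMIs that a count of 0 allows. These all came from 1 barcode of 3147 UMIs and 1215 genes, with 52 UMIs of the 10 genes, whose mitochondrial share of 10.2% lay just above the limit of 10%. With the limit at 20%, chosen after seeing the data, it joined the adipocyte-like cells, 46 in the WT.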

How the results depend on the processing

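The adipocyte-like class lost most cells under 4 alternatives: resolution 0.5 (32 WT and 3 KO), at least 500 genes per cell (33 and 2), each library clustered alone (36 and 0, with the 8 KO cells in an unnamed cluster and so without KO levels), and thinning to 2000 UMIs (31 and 2). Most cells that left carried Dcn, Col1a1 and Dlk1 and joined the mesenchymal-like class, which by construction raises most member levels in what is left. In that order the WT share was 2.08% at resolution 0.5, and the KO share 0.362%, 0.246%, 0% and 0.248%.
Summed levels (CPM) in the WT were 11099.8, 10911, 10601 and 11871, and in the KO 7631, 9739 and, thinned, 8750.
At resolution 0.5 the WT levels were Adipoq 675, Cidea 319, Lpl 662, Gpd1 413, Car3 7925 and Cox7a1 788, and the KO levels Adipoq 602, Gpd1 266 and Car3 5914.
With 500 genes per cell the WT gave Adipoq 695, Cidea 309, Lpl 648, Gpd1 401, Car3 7779 and Cox7a1 768, and the KO gave Adipoq 814, Plin1 119.6, Gpd1 359 and Car3 7705.
Clustered alone, WT Adipoq was 665, Car3 7534 and Cox7a1 733.
Thinned, the WT had Cidea 371, Lpl 532, Gpd1 419, Car3 8452, Ppargc1a 96.8 and Cox7a1 1177, and the KO had Adipoq 750, Gpd1 250, Car3 7000 and Plin1, Pparg and Cox7a1 at 0, each from few UMIs.
Averaging CPM over cells, which weights shallow cells equally, gave summed levels of 9006 (WT) and 3533 (KO), Adipoq 478 and 185, and Car3 6197 and 2472.
TMM scaling gave WT levels of 11041 summed, Adipoq 672, Lpl 881, Car3 7728 and Cox7a1 745.
Without the cell with most member UMIs in each library, chosen after seeing the data, KO levels were 2676 summed, Adipoq 25.4, Plin1 12.7, Gpd1 76.1, Car3 1814 and Cox7a1 0.
In mesenchymal-like cells the KO to WT log2 ratio under the 4 alternatives was -0.87, -0.79, -1.13 and -1.04 for Lpl and -1.27, -1.001, -2.70 and -1.45 for Car3. Other causes of these moves were not tested.
Requiring 30 UMIs, which tests fewer genes, left 338 genes higher and 161 lower in mesenchymal-like and 132 higher and 267 lower in adipocyte-like cells of the KO. TMM scaling, chosen there after seeing the data, left 337 higher in the latter.
Without held-out genes the adipocyte-like class had 43 WT cells and with no minimum of cells per gene 44. With 500 genes per cell the KO to WT direction of Adipoq in adipocyte-like cells turned and Car3 became nearly equal. Resolution 2, Scrublet removal, no held-out genes, no minimum of cells per gene and, added after seeing the data, the 20% mitochondrial limit and counting the unnamed cluster as mesenchymal-like moved none of these values beyond their counting interval.
No paired analysis was possible because each genotype had 1 library and nothing was tested.
The KO values rest on 8 cells and 102169 UMIs, so a gene below about 29.4 CPM there can go unseen.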
